A study of Mus musculus with 88 samples.

Results

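The bed nucleus of the stria terminalis (BNST) and the ventral hippocampus (vHPC) were compared in unstressed control mice of the DBA/2Crl strain (D2), gene by gene. The samples were chosen by region, strain and phenotype alone: 5 BNST libraries and 6 vHPC libraries out of the 88 RNA-seq libraries of the series. The genes were the 19546 that have values in both regions. The series as a whole asked how chronic social defeat stress changes the transcriptome of the medial prefrontal cortex (mPFC), BNST and vHPC in mouse strains that differ in their response to stress.

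All 11 mice were males aged 8 weeks that were never defeated. A control mouse lived beside another control mouse without physical contact, with a daily change of neighbour, and was housed alone afterwards. No allele, transgene or drug was involved. Each library came from the dissected tissue of 1 mouse, and the BNST and vHPC libraries came from different mice. As further values, the same difference is given for the C57BL/6Crl (B6) controls, with 5 BNST and 6 vHPC libraries, and the level in 6 mPFC libraries of D2 controls.

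The 2 regions were never prepared alike. BNST libraries were made with InDA-C ribosomal RNA depletion in the Ovation Universal kit and read single-end on a NextSeq sequencer, whereas vHPC libraries were made with Ribo-Zero Gold depletion and the Nextera kit and read paired-end on a HiSeq sequencer. The BNST values were computed here from deposited counts, while the vHPC values are log2 CPM (counts scaled to a common library total) that the authors had filtered, normalized and adjusted for batches by themselves. Region, kit and normalization therefore cannot be told apart, no p-value was computed between the regions, and only large differences are described. A gene was called higher in a region when its mean log2 CPM there was at least 2 units above that of the other region (4-fold), every library of the one lay above every library of the other, and its mean there was at least 0 (1 CPM). In bulk tissue, fewer cells of a type and less RNA per cell cannot be told apart.

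The BNST is part of the extended amygdala, a subpallial structure of mostly GABAergic neurons that release peptides and link the amygdala with the hypothalamus and midbrain. The vHPC is pallial cortex, made mostly of glutamatergic pyramidal and granule cells, with interneurons of subpallial origin. Most glutamatergic neurons load their vesicles with the transporter encoded by Slc17a7 or Slc17a6, and GABAergic neurons make GABA with Gad1 and Gad2 and load it with Slc32a1.

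By this rule 461 genes were higher in the BNST (2.36% of the 19546 genes) and 3104 were higher in the vHPC (15.9%). Of the 14434 protein-coding genes, 375 (2.6%) were higher in the BNST and 1116 (7.73%) in the vHPC. Separation alone was common: every BNST library lay above every vHPC library in 1967 genes, and every vHPC library above every BNST library in 8143. The median difference, BNST minus vHPC, was −0.59 log2 over all genes and −0.45 over protein-coding genes, so a gene at −0.59 sits at the middle of the table and list medians are also given relative to it. The unequal numbers of calls depended on this scale. With quantile normalization over the 11 libraries 1530 genes were higher in the BNST and 1514 in the vHPC, so that BNST calls made up 50.3% of all calls in place of 12.9%. The numbers also depended on which genes were kept. Over the 16362 genes that pass the level filter in the BNST as well, 461 were higher in the BNST and 902 in the vHPC (BNST share 33.8%), and with ComBat adjustment of the BNST for library set over the same genes 483 and 904 were called.

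**Figure D1:**
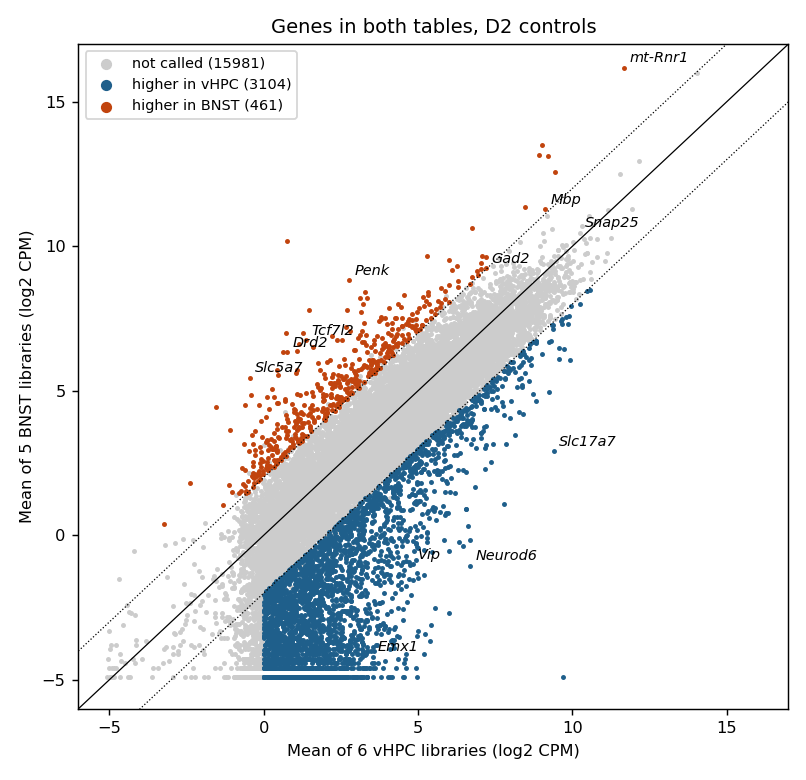
Mean log2 CPM of each gene in the 6 vHPC libraries (x axis) against the 5 BNST libraries (y axis) of D2 controls, with the line of equality and dotted lines at a difference of 2. The 461 genes called higher in the BNST lie above the upper dotted line and the 3104 called higher in the vHPC lie below the lower one, many of them on the rows of points near −5 where the BNST libraries held no read.

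The vesicular glutamate transporter Slc17a7, which marks cortical and hippocampal pyramidal neurons, stood at 9.29 to 9.47 log2 CPM in the vHPC libraries (median 9.40). In BNST replicates 1 to 5 it stood at 3.01, −3.00, 3.96, 3.66 and 6.90. All BNST libraries were below all vHPC libraries, by −6.49 log2 on average (SE 1.62), and they spread widely, with replicate 2 lowest and replicate 5 highest. The mean in the mPFC was 7.82, and the difference in B6 controls was −4.96. The other vesicular glutamate transporter, Slc17a6, which is used by thalamic and hypothalamic neurons, was not called (difference 0.66, SE 0.82), and its BNST values ran from 3.23 in replicate 4 to 7.45 in replicate 5.

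The GABA genes went the other way. The vesicular GABA transporter Slc32a1 stood at 8.10, 6.4, 7.61, 8.21 and 7.08 log2 CPM in BNST replicates 1 to 5 and at 4.37 to 4.93 in the vHPC (median 4.73), a difference of 2.77 (SE 0.35). Gad2, a GABA-synthesizing enzyme, was 2.05 higher in the BNST (SE 0.24), with replicate 2 at 10.209 and the other 4 BNST libraries between 8.91 and 9.11. Without replicate 2 the difference fell under the threshold. The call was also lost in BNST library set 2 (replicates 3 and 4) and with rescaling of each library over the shared genes. Gad1, the other such enzyme, was 9.10 ± 0.18 (SD, n = 5) in the BNST and 8.09 ± 0.07 (SD, n = 6) in the vHPC, and its difference of 1.01 was not called although the regions did not overlap.

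On the BNST side, the largest difference of the transmitter genes was that of a cholinergic gene. The choline transporter Slc5a7 stood at 4.8, 7.44, 5.29, 4.91 and 4.83 log2 CPM in BNST replicates 1 to 5 and at −0.84 to −0.19 in the vHPC (median −0.46), a difference of 5.91 (SE 0.51). Replicate 2 held the most, and the difference in B6 controls was 4.52. The acetylcholine-synthesizing enzyme Chat (4.36 ± 0.39, SD, n = 5) and the vesicular acetylcholine transporter Slc18a3 (3.71 ± 1.21, SD, n = 5) were measured in the BNST and have no vHPC value here. Th, the rate-limiting enzyme of catecholamine synthesis, was 2.07 higher in the BNST (SE 0.44), a call that was lost without BNST replicate 1 (3.16). The vesicular monoamine transporter Slc18a2 differed by −2.88 (SE 0.49). Of the 13 genes of transmitter synthesis and transport with values in both regions, 4 were higher in the BNST, 2 in the vHPC and 7 were not called. Their median difference was 0.66, or 1.25 relative to all genes. The shares called, 30.8% in the BNST and 15.4% in the vHPC, stood beside 2.6% and 7.73% of protein-coding genes.

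Promoters of 4 called genes are shown: 2 vesicular transporters, a dopamine receptor and a pallial transcription factor. Each runs from 250 bases before to 50 bases after a RefSeq start site, on the strand of the gene, in build GRCm38.p6. Capitals mark GC boxes (GGGCGG, searched on both strands) and E-boxes (CANNTG, the same on both strands), and 2 of the GC boxes of Slc17a7 overlap by their end base. Slc32a1 lies at chr2:158610508-158610807 (+), Drd2 at chr9:49340153-49340452 (+), Slc17a7 at chr7:45163671-45163970 (+) and Neurod6 at chr6:55681214-55681513 (−).
Slc32a1: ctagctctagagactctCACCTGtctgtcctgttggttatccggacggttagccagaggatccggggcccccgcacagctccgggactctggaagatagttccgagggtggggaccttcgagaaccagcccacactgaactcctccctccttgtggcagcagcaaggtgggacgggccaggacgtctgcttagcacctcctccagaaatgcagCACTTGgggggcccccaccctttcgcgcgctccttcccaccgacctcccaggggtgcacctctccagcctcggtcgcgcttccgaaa
Drd2: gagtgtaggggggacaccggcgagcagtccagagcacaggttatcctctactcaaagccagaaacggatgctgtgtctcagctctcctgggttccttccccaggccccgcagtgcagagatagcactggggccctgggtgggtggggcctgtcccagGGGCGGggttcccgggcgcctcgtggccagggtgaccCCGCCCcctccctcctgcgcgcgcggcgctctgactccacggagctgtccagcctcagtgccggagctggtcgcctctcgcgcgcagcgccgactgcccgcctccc
Slc17a7: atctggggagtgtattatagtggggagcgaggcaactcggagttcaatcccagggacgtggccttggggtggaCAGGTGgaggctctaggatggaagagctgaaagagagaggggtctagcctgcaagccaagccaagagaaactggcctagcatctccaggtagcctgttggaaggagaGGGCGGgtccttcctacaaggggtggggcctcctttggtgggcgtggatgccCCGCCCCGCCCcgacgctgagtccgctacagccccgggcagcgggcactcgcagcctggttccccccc
Neurod6: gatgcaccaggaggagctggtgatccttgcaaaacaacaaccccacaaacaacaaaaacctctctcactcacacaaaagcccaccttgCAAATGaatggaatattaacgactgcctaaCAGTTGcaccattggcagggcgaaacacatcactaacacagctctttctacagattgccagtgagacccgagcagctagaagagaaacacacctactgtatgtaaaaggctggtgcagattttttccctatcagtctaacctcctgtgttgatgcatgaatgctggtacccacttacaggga
There were 0 GC boxes and 2 E-boxes in Slc32a1, 2 and 0 in Drd2, 3 and 1 in Slc17a7, and 0 and 2 in Neurod6. A GC box stood in 59.9% of 14431 promoters of protein-coding genes with values in both regions, in 57% of 377 promoters of genes higher in the BNST and in 45.0% of 1011 promoters of genes higher in the vHPC. For the E-box the shares were 64.7%, 62.6% and 71.1%. These are matches of letters and not sites of binding. The 14431 promoters belong to 11266 genes, the 377 to 279 of the 375 called in the BNST and the 1011 to 821 of the 1116 called in the vHPC. A gene with several promoters was thus counted more than once, and genes without an entry were left out. Of the 103 genes named by rule, 66 had an entry in the promoter table.

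Of 16 transcription factors of the pallium and its glutamatergic neurons, 7 were higher in the vHPC and none in the BNST. The 7 were 43.8% of the list, beside 15.9% of all genes and 7.73% of protein-coding genes. Neurod6, a bHLH factor of pyramidal neurons, stood at 6.60 to 6.80 log2 CPM in the vHPC (median 6.69) and at −2.51, −0.88, −0.70, −0.36 and −0.82 in BNST replicates 1 to 5. Its difference was −7.74 (SE 0.38) and its mPFC mean, 6.81, was near that of the vHPC. Neurod2, of the same family, differed by −6.86 (SE 0.70) and Bhlhe22 by −6.82 (SE 0.52). Emx1, a homeobox gene of the dorsal telencephalon, stood at 3.31 to 3.70 in the vHPC, and only 5 of its reads were counted over the 5 BNST libraries, so the size of its difference (−7.73, SE 0.65) rests on the prior count. Fezf2, Nr4a2 and Neurod1 differed by −4.58 (SE 0.27), −3.84 (SE 0.43) and −3.03 (SE 0.58).

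The median of the 16 was −1.67, or −1.08 relative to all genes. Of the members not called, Emx2 (0.47), Etv1 (0.24) and Pou3f1 (0.08) had differences above 0, and Mef2c and Zbtb20 stood at 7.61 and 9.60 in the BNST and at 7.83 and 9.64 in the vHPC. Also not called was Prox1, the factor of dentate granule cells. It stood at 5.79 to 6.23 in the vHPC and at 4.94, 5.38, 6.87, 6.91 and 7.71 in BNST replicates 1 to 5, so the regions overlapped. Tbr1, a factor of cortical projection neurons, differed by −1.60 (SE 0.33) and was not called.

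Subpallial transcription factors went the other way: 9 of 15 were higher in the BNST and none in the vHPC, with a median of 2.90, or 3.49 relative to all genes. Dlx5, a homeobox gene of GABAergic progenitors and neurons, stood at 5.61, 3.23, 4.98, 5.42 and 3.25 log2 CPM in BNST replicates 1 to 5 and at −0.91 to −0.36 in the vHPC, a difference of 5.11 (SE 0.53). Dlx2 and Dlx6 differed by 3.18 (SE 0.38) and 3.36 (SE 0.40). Zfhx3 (4.88, SE 0.18) and Foxp2 (4.69, SE 0.23), factors of striatal and amygdalar neurons, had the most even BNST levels of the called factors named here, with SDs of 0.37 and 0.48 (n = 5). Meis2, Ebf1, Sp9 and Zic1 differed by 3.01, 2.82, 2.90 and 3.48.

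Of the 15 factors, 3 had differences below 0, and none of these was called. Dlx6os1 (−0.70) and St18 (−0.33) overlapped between the regions. Dlx1 differed by −0.94 (SE 0.23), every vHPC library above every BNST library, beside 3.18 in its neighbour Dlx2. All exon bases of Dlx1 lie inside Dlx1as, a gene on the opposite strand, and reads of the pair cannot be told apart where strand is not used in counting. Lhx6, a factor of interneurons from the medial ganglionic eminence, which populate both regions, differed by 1.07 (SE 0.28). A further 5 listed factors have no vHPC value here and were well measured in the BNST: Six3 at 7.35 ± 0.79, Isl1 at 4.06 ± 0.21, Lhx8 at 3.73 ± 0.70, Nkx2-1 at 3.13 ± 0.65 and Gbx1 at 2.52 ± 0.28 log2 CPM (SD, n = 5). These are factors of striatal, cholinergic and other ventral forebrain neurons. The vHPC table keeps a gene only if 6 or more libraries reached 1 CPM, so a gene low in the vHPC drops out of the comparison while a gene low in the BNST stays in. In all, 596 genes without a vHPC value had a BNST mean of at least 0.

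**Figure D2:**
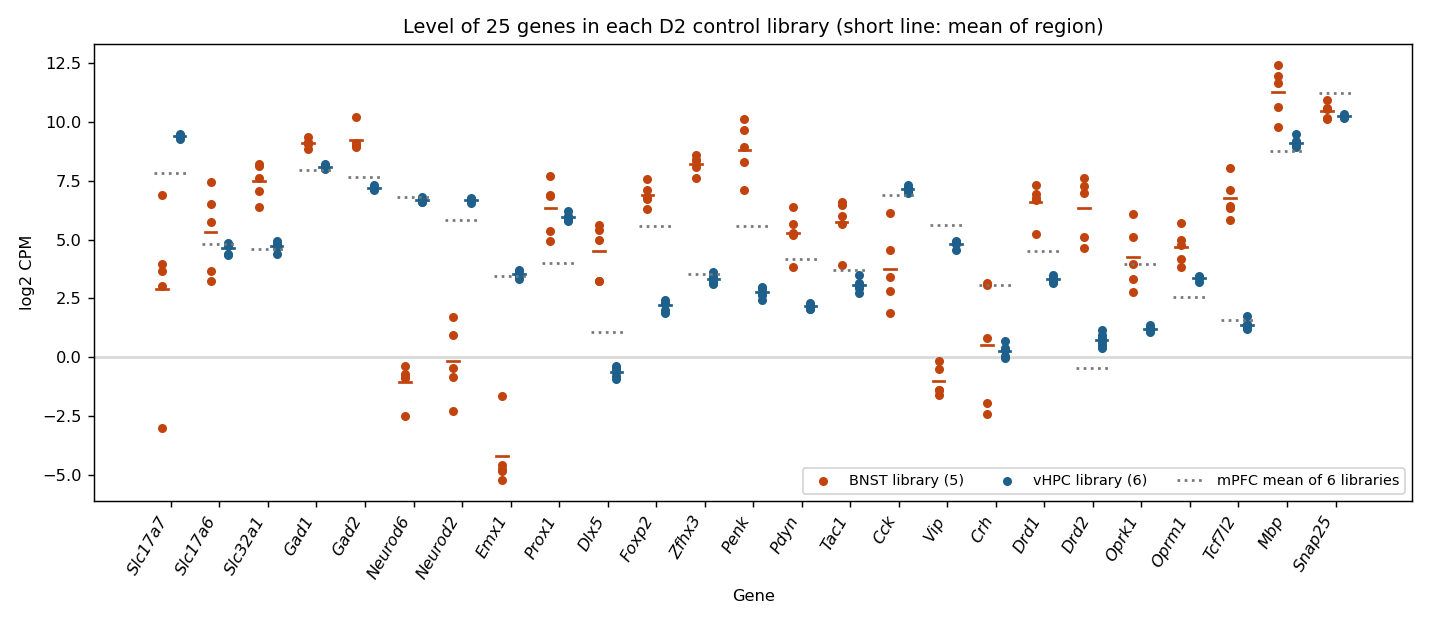
Level of 25 genes (x axis) in log2 CPM (y axis) in each of 5 BNST libraries and 6 vHPC libraries of D2 controls, with the mean of each region as a short line and the mean of 6 mPFC libraries dotted. The vHPC points of a gene lie close together while the BNST points spread, and Neurod6, Neurod2, Emx1 and Vip are low in the BNST where Penk, Drd2, Dlx5 and Tcf7l2 are high.

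Among peptide precursors, those of enkephalin, dynorphin and substance P were higher in the BNST. Penk, which encodes proenkephalin, had the largest difference of any named protein-coding gene on the BNST side. It stood at 10.13, 8.31, 8.92, 9.65 and 7.09 log2 CPM in BNST replicates 1 to 5 and at 2.43 to 3.00 in the vHPC (median 2.79), a difference of 6.05 (SE 0.54), with 7.30 in B6 controls and a level of 5.58 in the mPFC. Pdyn, the prodynorphin gene, was 3.1 higher (SE 0.42) and Tac1, which encodes substance P, 2.66 higher (SE 0.49). All 3 were lowest in BNST replicate 5. Of the other opioid-family precursors, Pnoc (0.61) and Pomc (−1.075) were not called.

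Other peptide genes were higher in the vHPC. The vHPC held Cck, cholecystokinin, at 6.98 to 7.32, against 2.81, 1.89, 4.54, 3.39 and 6.13 in BNST replicates 1 to 5, a difference of −3.38 (SE 0.73). Vip, a marker of disinhibitory interneurons, stood at 4.55 to 4.93 in the vHPC and at −1.58 to −0.17 in the BNST, a difference of −5.83 (SE 0.29). The binding protein of corticotropin-releasing hormone, Crhbp, differed by −5.82 (SE 0.48) and the neuropeptide gene Adcyap1 by −2.93 (SE 0.41). The gastrin-releasing peptide gene Grp differed by −6.39 (SE 0.18), and all of its exon bases lie inside a gene on the opposite strand. Agrp rests on 3 BNST reads, a ratio of 4.66 log2 in favour of the vHPC with a counting interval of 3.11 to 6.93 (95%, exact Poisson), and 76.5% of its exon bases lie inside opposite-strand genes. Its call was lost with centring, with quantile normalization and without vHPC replicate 6, and it was not called in B6 controls.

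Corticotropin-releasing hormone itself, Crh, which is made by neurons of the oval BNST, overlapped between the regions. Its BNST values were 3.07, 3.14, 0.84, −1.94 and −2.41 log2 CPM in replicates 1 to 5 and its vHPC values lay between −0.05 and 0.69. The SD was 2.65 in the BNST and 0.26 in the vHPC, with 3 BNST libraries above every vHPC library and 2 below. Npy (0.69, SE 0.36) and Sst (0.65, SE 0.26) were not called. Over the list, 3 of 22 peptide precursors were higher in the BNST and 6 in the vHPC, with a median of −0.56, which is 0.03 above that of all genes. Those shares, 13.6% and 27.3%, stood beside 2.6% and 7.73% of protein-coding genes. Hypothalamic peptides without a vHPC value varied widely in the BNST: Avp (vasopressin) 2.06 ± 1.84, Trh 2.70 ± 1.42 and Oxt (oxytocin) −0.91 ± 2.48 log2 CPM (SD, n = 5).

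Of 40 peptide receptors 11 were higher in the vHPC and 2 in the BNST, and the median was −1.32, or −0.73 relative to all genes. Those shares, 27.5% and 5.0%, stood beside 7.73% and 2.6% of protein-coding genes. Differences below 0 were found for 35 of the 40 receptors and for 70.4% of all genes. With quantile normalization 7 receptors were higher in the vHPC and 3 in the BNST. Of the somatostatin receptors with values in both regions, 4 were higher in the vHPC. Sstr3, a receptor of neuronal cilia, stood at 1.23, 1.3, 2.02, 1.179 and 1.84 log2 CPM in BNST replicates 1 to 5 and at 5.77 to 6.02 in the vHPC, a difference of −4.34 (SE 0.18). Sstr4, Sstr1 and Sstr2 followed with −3.75, −3.11 and −2.69. The relaxin-family receptors Rxfp3 and Rxfp1 differed by −3.49 and −3.26, and the ghrelin receptor Ghsr differed by −3.31 on 19 BNST reads, a call lost with quantile normalization.

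The 2 peptide receptors higher in the BNST bind peptides of Pdyn and Tac1, which were also higher there. Oprk1, the kappa opioid receptor for dynorphin, stood at 5.09, 6.10, 3.95, 3.32 and 2.79 log2 CPM in BNST replicates 1 to 5 and at 1.07 to 1.36 in the vHPC (median 1.2), a difference of 3.04 (SE 0.60). Tacr1, the substance P receptor, differed by 3.38 (SE 0.34) and stood at 3.91 to 5.88 in the BNST. Oprm1, the mu opioid receptor, was above the vHPC in every BNST library but by 1.32 (SE 0.33), under the threshold. Of the other opioid-family receptors, Oprd1 (−0.745) was not called and Oprl1 (−2.495) was higher in the vHPC. Crhr1, the main receptor of corticotropin-releasing hormone, differed by −1.05 (SE 0.32) and was not called.

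Receptors for monoamines, acetylcholine, histamine, adenosine and cannabinoids split by subtype: 4 of 37 were higher in the BNST, 9 in the vHPC and 24 were not called, with a median of −0.63. Drd2, the dopamine receptor of indirect-pathway striatal neurons, stood at 7.62, 4.63, 6.99, 7.28 and 5.13 log2 CPM in BNST replicates 1 to 5 and at 0.39 to 1.1 in the vHPC, a difference of 5.58 (SE 0.62). The adenosine receptor Adora2a, which the same striatal neurons express, had the same order of replicates 1 to 5 (7.10, 3.90, 6.34, 6.46 and 4.78) and differed by 5.29 (SE 0.60). Drd1, the receptor of the direct pathway, differed by 3.28 (SE 0.36) and stood at 6.93 in replicate 2, in which Drd2 was lowest. The serotonin receptor Htr1b differed by 2.62 (SE 0.43).

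On the vHPC side were the serotonin receptors Htr3a (−5.77, SE 0.35), Htr5b (−4.66, SE 0.99) and Htr1a (−2.83, SE 0.32), the last an autoreceptor and pyramidal-cell receptor that stood at 5.34 to 5.51 in the vHPC and at 1.96 to 3.81 in the BNST. The noradrenaline receptor Adra1d differed by −5.04 (SE 1.64), on BNST values of −2.02, −4.58, 2.92, 2.39 and 4.01 in replicates 1 to 5. The nicotinic subunit Chrna5 differed by −4.03 (SE 0.73), and 77.8% of the exon bases of Htr3a lie inside an opposite-strand gene.

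Few receptor subunits for GABA, glycine and glutamate were called. None of 18 GABA and glycine receptor subunits was called, with differences from −1.53 (Gabra5, a subunit abundant in hippocampal pyramidal cells) to 1.74 (Gabrq). Of 24 glutamate receptor subunits, Grin2d (2.47, SE 0.43) was higher in the BNST, Grin2a (−2.01, SE 0.11) and the presynaptic metabotropic receptor Grm2 (−2.91, SE 0.55) in the vHPC, and 21 were not called. The call of Grin2a was lost with centring of each library on its median, with quantile normalization and without BNST replicate 3 or 4. It was also lost in BNST library set 1 and with rescaling over protein-coding genes outside the mitochondrial genome.

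Of the sex and stress steroid receptors, the glucocorticoid receptor Nr3c1 differed by −0.46 (SE 0.21) and the estrogen receptor Esr1 by −1.04 (SE 0.55), and neither was called. Esr1 stood at 1.99, 2.90, 1.28, 0.38 and −0.17 in BNST replicates 1 to 5 and at 2.19 to 2.45 in the vHPC. The mineralocorticoid receptor Nr3c2, which hippocampal neurons express strongly, stood at 5.87 to 6.43 in the BNST and 7.62 to 7.77 in the vHPC without overlap (−1.51, SE 0.10), under the threshold. Greb1, an estrogen-responsive gene, was 2.3 higher in the BNST (SE 0.20) and Esr2 differed by −3.42 (SE 0.75) on 13 BNST reads, a call lost with quantile normalization. Aromatase, Cyp19a1, has no vHPC value here and was near its detection limit in the BNST at −3.5 ± 1.37 log2 CPM (SD, n = 5).

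**Figure D3:**
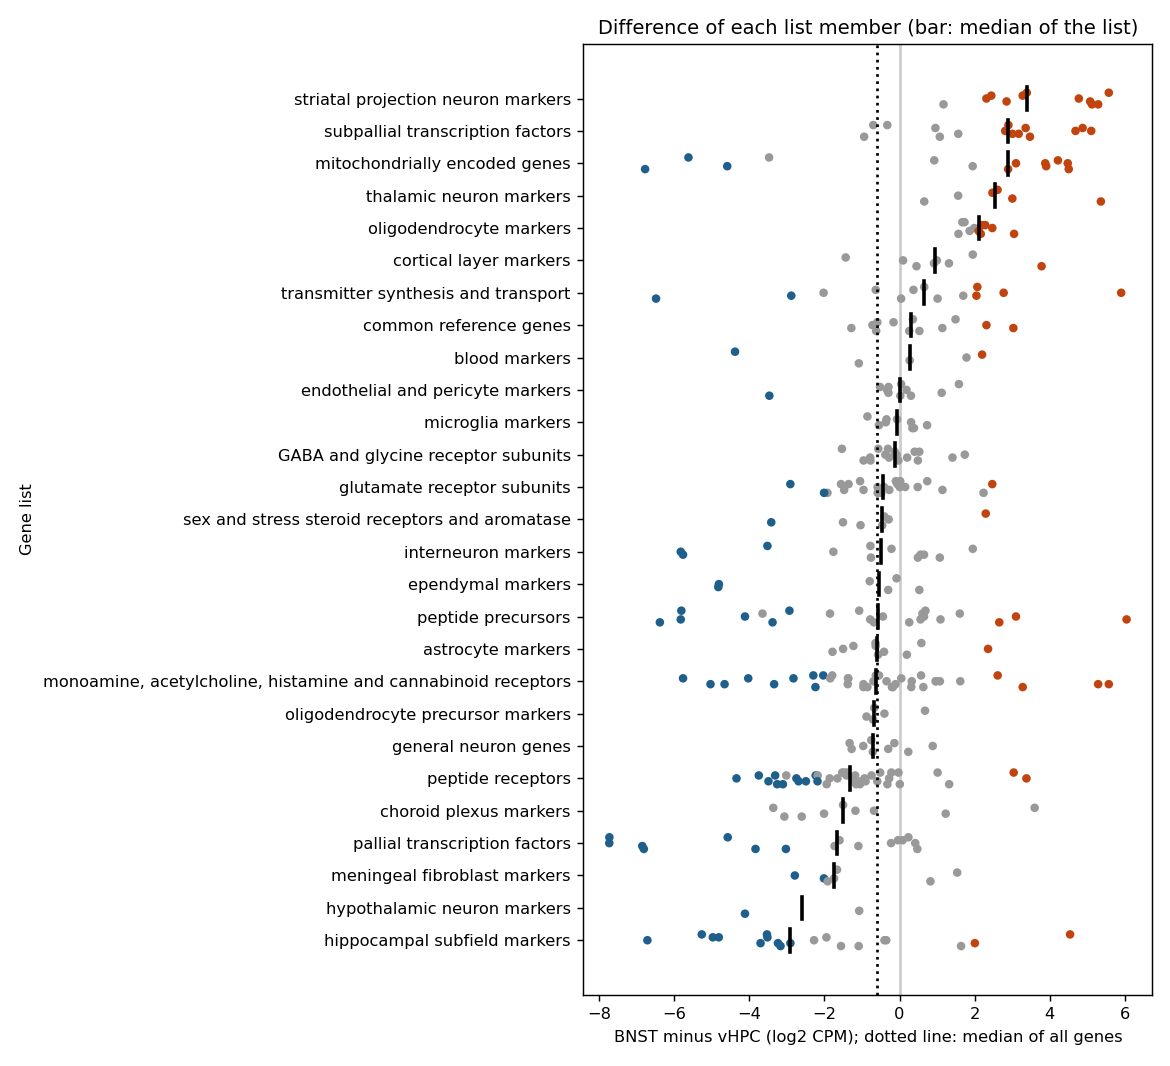
Difference between BNST and vHPC in log2 CPM (x axis) of each member of 27 gene lists (y axis), red where called higher in the BNST and blue where called higher in the vHPC, with a black bar at the median of the list. Striatal markers (median 3.39) and subpallial factors (2.90) stand at one end and hippocampal subfield markers (−2.91) at the other, while most receptor and glial lists lie near the dotted median of all genes at −0.59.

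Of 19 markers of hippocampal subfields 10 (52.6%) were higher in the vHPC, beside 15.9% of all genes and 7.73% of protein-coding genes. Their median was −2.91, or −2.32 relative to all genes. The list was chosen with earlier results of these data known, so it is no independent check of the tissue. Fibcd1, of CA1 pyramidal cells, stood at 7.2 to 7.5 log2 CPM in the vHPC and at 3.44, 1.61, 2.90, 3.24 and 1.5 in BNST replicates 1 to 5, a difference of −4.82 (SE 0.41). Its mPFC mean was 1.59, far below the vHPC. Lct (−6.72, SE 0.53) and Dsp (−4.98, SE 0.56), of dentate granule cells, and Spink8 (−5.27, SE 0.92), of CA1, were low in the mPFC as well, at 1.33, 0.59 and −0.67. Calb2, calretinin, differed by −3.52 (SE 0.74). The 2 list members higher in the BNST were Pcp4 (4.55, SE 0.26), a marker of CA2 that striatal neurons also express, and Cacng5 (2.01, SE 0.29), whose call was lost under 9 of 20 other settings. Wfs1, another member, was not called (1.64), but every BNST library (6.30 to 7.95) lay above every vHPC library (4.87 to 5.56).

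Markers of neighbouring regions were also high in the BNST libraries, and unevenly so. Of 11 markers of striatal projection neurons 10 were higher in the BNST and none in the vHPC, with a median of 3.39, or 3.98 relative to all genes. The 10 were 90.9% of the list, beside 2.6% of protein-coding genes. The protein phosphatase inhibitor Ppp1r1b stood at 9.91, 6.14, 9.18, 9.64 and 7.20 in BNST replicates 1 to 5 and at 2.83 to 3.84 in the vHPC (5.13, SE 0.76). Rgs9, a regulator of dopamine receptor signalling, differed by 4.78 (SE 0.42). The mean level of the 11 genes was 8.25, 6.2, 7.62, 7.77 and 6.08 log2 CPM in BNST replicates 1 to 5, and 3.27 to 3.58 in the vHPC. These genes are also expressed by neurons of the BNST itself, and how much of their level came from striatal tissue was not tested.

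Thalamic markers had another order of libraries. Their mean level was 4.14, 4.48, 6.05, 4.79 and 7.67 log2 CPM in BNST replicates 1 to 5 and 2.67 to 3.01 in the vHPC, so that replicate 5, lowest in striatal markers, was highest here. Tcf7l2, a factor of thalamic neurons that oligodendrocytes also express, stood at 5.84, 6.32, 7.10, 6.44 and 8.03 and differed by 5.37 (SE 0.39). Lef1 differed by 3.01 (SE 0.59), Plekhg1 by 2.61 (SE 0.75) and Prkcd by 2.48 (SE 0.99). The 4 called markers were 66.7% of the 6 with values in both regions, beside 2.6% of protein-coding genes. The call of Prkcd was lost with library totals in place of TMM and with rescaling over the shared genes. Prkcd stood at 8.85 in replicate 5 and at 3.5 in replicate 2. Without replicate 5 its call was lost too, and 3 thalamic markers were called in place of 4. Slc17a7 and Slc17a6 were highest in the same library. In B6 controls 2 of the 6 thalamic markers and 10 of the 11 striatal markers were higher in the BNST. Of 12 hypothalamic markers 2 had values in both regions, Agrp (higher in the vHPC) and Pomc (not called). Of the others, Nkx2-1 (3.13) and Avp (2.06) had BNST means above 0 log2 CPM. The rest had means from −0.23 (Pmch) down to −4.26 (Nr5a1).

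Oligodendrocyte genes were higher in the BNST. Of 11 myelin and oligodendrocyte genes 6 were higher in the BNST, all 11 differences were above 0, and the median was 2.11, or 2.70 relative to all genes. The 6 were 54.5% of the list, beside 2.6% of protein-coding genes. Mbp, myelin basic protein, stood at 10.64, 9.76, 11.66, 12.42 and 11.95 log2 CPM in BNST replicates 1 to 5 and at 8.94 to 9.48 in the vHPC (2.165, SE 0.49). The call of Mbp was lost with library totals in place of TMM, with rescaling over the shared genes, in BNST library set 1 and without BNST replicate 4 or 5. The lineage factor Sox10 differed by 3.05 (SE 0.70), a call lost under the first 2 of these settings, and Mog by 2.29 (SE 0.41). Without BNST replicate 4 the number called was 3, and without replicate 1 it was 9. It was 3 in BNST library set 1 (replicates 1, 2 and 5) and 9 in library set 2 (replicates 3 and 4), and in B6 controls 1 of 11 was called with a median of 0.24. The difference between strains was not tested.

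For other cell types few markers were called. Over all protein-coding genes 2.6% were higher in the BNST and 7.73% in the vHPC, so such low counts on short lists are near those shares. None of the 9 general neuron genes, 9 microglial or 5 oligodendrocyte precursor markers was called, and their medians were −0.71, −0.07 and −0.67. Snap25, a synaptic protein of all neurons, differed by 0.23 (SE 0.15). Of 10 astrocyte markers 1 was called, the factor Sox9 (2.36, SE 0.18), and Aqp4, the astrocytic water channel, differed by −0.57 (SE 0.23). Of 11 endothelial and pericyte markers 1 was called, the tight-junction gene Cldn5 (−3.47, SE 0.45), beside a list median of 0.02. Of 12 interneuron markers, Vip, Htr3a and Calb2 were higher in the vHPC. Of 7 meningeal fibroblast markers 2 were higher in the vHPC, the transporter gene Slc6a13 (−2.79) and the collagen gene Col1a2 (−2.01), and the median was −1.74, or −1.16 relative to all genes. The call of Col1a2 was lost under 9 of 20 other settings. Of 6 ependymal markers Ccdc153 and Tmem212 were higher in the vHPC, both on few BNST reads, with a list median of −0.55. No choroid plexus marker was called in D2 controls, where the median was −1.50, whereas in B6 controls 6 of 9 were higher in the vHPC with a median of −5.57. This difference between strains was not tested. The list varied between libraries: its mean was 3.5 log2 CPM in vHPC replicate 2 and −0.86 to 0.30 in the other 5, and 1.16 in BNST replicate 4 against −1.81 to −0.45. Ttr, the main choroid plexus transcript, stood at 8.84 in that vHPC library.

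**Figure D4:**
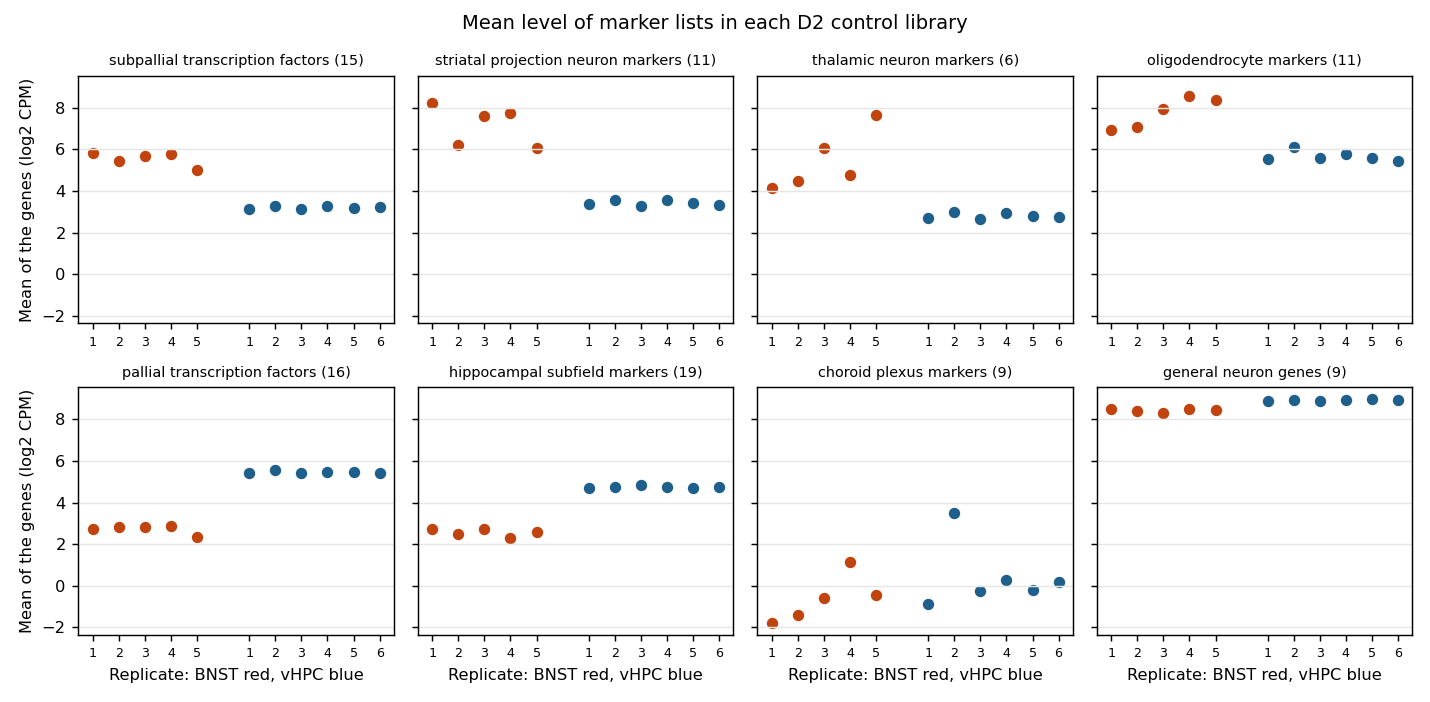
Mean level in log2 CPM (y axis) of 8 gene lists in each D2 control library (x axis, replicate number, BNST in red and vHPC in blue, number of genes in parentheses). BNST replicates 2 and 5 are lowest in striatal markers (6.2 and 6.08) and replicate 5 is highest in thalamic markers (7.67), whereas vHPC libraries differ little except in choroid plexus markers, where replicate 2 stands at 3.5.

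Several classes of genes that are defined by annotation also differed between the regions. Of 1269 processed pseudogenes 884 (69.7%) were higher in the vHPC and 0 in the BNST, with a median of −3.88, and of 885 antisense genes 489 (55.3%) were higher in the vHPC, with a median of −4.21. Protein-coding genes made up 73.8% of the genes compared, 81.3% of those higher in the BNST and 36.0% of those higher in the vHPC. Among protein-coding genes, 16.8% of the 1102 with at least 50% of their exon bases inside an opposite-strand gene were higher in the vHPC, against 7.41% of the 9309 without such overlap. Among those 9309 genes, 237 protein-coding genes were higher in the BNST and 690 in the vHPC. The BNST kit marks the strand of a read and the Nextera kit does not, and the strand setting used in counting is not given in the sources used here. The genes compared had also passed the level filter in the vHPC, while the BNST counts were not filtered. A class member low in the vHPC thus dropped out, while one low in the BNST stayed in, so the counts of these classes lean to the vHPC side. How much of these differences strand or this filter accounts for was not tested.

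**Figure D5:**
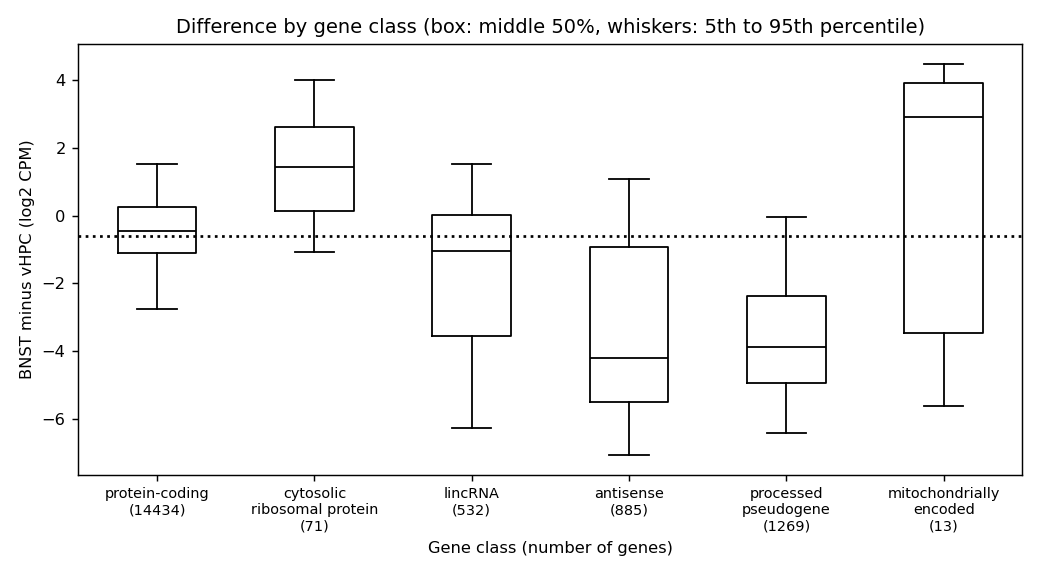
Difference between BNST and vHPC in log2 CPM (y axis) for 6 classes of genes (x axis, number of genes in parentheses), with the median, the middle 50% as a box and the 5th to 95th percentile as whiskers. Antisense genes (median −4.21) and processed pseudogenes (−3.88) lie below the dotted median of all genes, and cytosolic ribosomal protein genes (1.44) lie above it. The genes shown passed a level filter in the vHPC only.

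Genes of the ribosome and of mitochondria differed as well. Of 71 cytosolic ribosomal protein genes 26 were higher in the BNST and 1 in the vHPC, with a median of 1.44. Those shares, 36.6% and 1.41%, stood beside 2.6% and 7.73% of protein-coding genes. Rpl28 (5.72, SE 0.56) and Rpl17 (5.31, SE 0.14) were among the 12 largest, and the glycolytic gene Gapdh differed by 3.03 (SE 0.38). These genes have many near-identical processed pseudogenes that can share their reads, so their values are uncertain. Mitochondrially encoded genes took 11.1% to 30.8% of the counts of a BNST library and 2.09% to 3.3% of the summed CPM of a vHPC library. Cytochrome b, mt-Cytb, was 4.48 higher in the BNST (SE 0.50) and the ribosomal RNA mt-Rnr1 4.51 (SE 0.36). Yet mt-Co2 and mt-Co3, of the same genome, had 1 and 3 reads over the 5 BNST libraries, which made them higher in the vHPC by 7.28 (4.8 to 12.59) and 7.32 (5.77 to 9.60) log2 with counting intervals. Nuclear copies of mitochondrial sequence can share such reads, so these values are uncertain. The small RNAs Rn7sk, without a BNST read and at 9.42 to 10.02 in the vHPC, and Rny1, at 7.83 to 11.75 in the BNST and −0.07 to 1.35 in the vHPC, had the extreme differences of the whole table and were named after their values were seen.

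The 12 protein-coding genes with the largest difference on the vHPC side, predicted genes left out, rested on few BNST reads, between 0 and 38 over the 5 libraries. They were Klhl34, Slc9a4, Hipk4, Lrtm1, Dnase1, Slc26a4, Smoc2, Krt2, Gpr171, Igf2bp3, Neurod6 and Emx1. Dnase1, Krt2 and Gpr171 had no BNST read, and against a floor of 3 counts in a library they were at least 5.53, 5.17 and 5.06 log2 higher in the vHPC. Klhl34, at 5.92 to 6.11 in the vHPC and −4.58 to −0.93 in the BNST, and Slc26a4, at 4.84 to 5.14 and −4.83 to −1.93, had no exon base inside an opposite-strand gene, whereas Lrtm1 and Gpr171 lie wholly inside Cacna2d3 and Med12l. Of all genes higher in the vHPC, 1552 of 3104 had 15 or fewer reads over the BNST libraries, and 295 of the 1116 protein-coding ones.

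On the BNST side the largest were Penk, Slc5a7, Syndig1l, Rpl28, Drd2, Ajm1, Tcf7l2, Rpl17, Adora2a, Ppp1r1b and Dlx5, of which Penk, Drd2, Adora2a and Ppp1r1b mark striatal and similar neurons. Syndig1l, a synapse-associated membrane protein gene, stood at 8.42, 4.93, 7.67, 8.01 and 5.98 log2 CPM in BNST replicates 1 to 5 and at 1.11 to 1.43 in the vHPC (5.72, SE 0.67). Its mPFC mean was 0.07. Ajm1 differed by 5.47 (SE 0.61), with an mPFC mean of 5.37, and 95.7% of its exon bases lie inside an opposite-strand gene.

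In B6 controls, which are other mice prepared with the same kits, 658 genes were higher in the BNST and 3211 were higher in the vHPC. Among D2 calls, 345 of 461 (74.8%) on the BNST side and 2428 of 3104 (78.2%) on the vHPC side were also called in B6, which is 52.4% and 75.6% of the B6 calls. None was called in opposite directions. The kits differ between the regions in the same way in both strains, so this overlap does not separate region from kit.

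Spread also differed between the regions. The 5 BNST libraries held 14148230 to 16264455 counts each, and the vHPC table gives no depth. Over genes with a BNST mean of at least 1 CPM the median SD of a gene was 0.532 log2 in the BNST and 0.097 in the vHPC, where values had been adjusted for batches before deposit. Pearson correlations over genes between pairs of vHPC libraries were at least 0.991. BNST replicate 2 correlated at 0.903 to 0.925 with the other BNST libraries, which reached 0.976 among themselves. Without it 580 genes were higher in the BNST and 3122 in the vHPC.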

How the data were processed

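RNA was total RNA of dissected tissue, 1 library per mouse. For the BNST the authors deposited raw counts per gene: reads were trimmed, freed of PCR duplicates, aligned with STAR to GRCm38 and counted over exons with HTSeq. For the vHPC and mPFC the authors deposited log2 CPM values, filtered at 1 CPM in 6 or more libraries, transformed with voom of limma and adjusted with ComBat for library batches, in the vHPC for sequencing batches as well. The strand setting of counting is not given in the sources used here.

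BNST counts were turned here into log2 CPM with a prior count of 0.5 and TMM factors (0.8073 to 1.1429) over the 28 BNST libraries, in edgeR 4.0.16 under R 4.3.3. A gene without reads then stands near −5, so its fitted difference depends on the prior count. Bounds used a floor of 3 counts in a library, and ratios on 1 to 3 reads have exact Poisson intervals (95%) that cover counting error only. SE is the standard error of the difference between group means. Calls follow size and overlap, with no p-value.

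Members and lists were chosen with earlier results of these data known. Named genes were 29 anchors, up to 4 called members of each list per direction and the 12 largest protein-coding differences per direction. Other list members were named after their values were seen, to complete a family. Alternatives were other scalings, priors, thresholds, library sets and each library left out. A few named genes are not reported here.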

Additional observations from a re-analysis of the deposited data

Results flagged for a closer look

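Within a region, 25 of 260 groups of values (9.62%) held 1 library set apart from the rest by Dixon's criterion, which chance alone meets in about 1 in 20 groups. All values are log2 CPM, with the range of the other libraries of that region after each.

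BNST replicate 2 stood apart in Slc5a7 (7.44 against 4.8 to 5.29), Gad2 (10.209 against 8.91 to 9.11), Ajm1 (4.28 against 6.67 to 7.43) and Cldn5 (0.46 against 2.43 to 2.74), and in the mean of the microglia markers (3.79 against 4.54 to 4.79). BNST replicate 1 stood apart in the oligodendrocyte gene Ermn (5.57 against 7.00 to 7.47), in Htr3a (−0.077 against −1.93 to −1.58) and in Neurod6 (−2.51 against −0.88 to −0.36). BNST replicate 5 did so in the collagen gene Col1a2 (2.70 against 1.83 to 2.07), in Htr1b (4.24 against 6.10 to 6.69) and in the mean of the pallial transcription factors (2.36 against 2.74 to 2.88).

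On few reads, BNST replicate 3 was high in Emx1 (−1.64 against −5.22 to −4.58), and BNST replicate 4 was high in the ependymal genes Tmem212 (−1.94 against −5.22 to −4.58) and Ccdc153 (−2.43 against −5.22 to −4.58).

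In the vHPC, replicate 2 was high in genes of the ventricle lining: Ttr (8.84 against 3.26 to 4.69), Tmem212 (1.139 against 0.27 to 0.45), the choroid plexus mean (3.5 against −0.86 to 0.30) and the ependymal mean (1.39 against 0.57 to 0.82). It was also high in Tcf7l2 (1.74 against 1.22 to 1.41). Replicate 4 was low in Vip (4.55 against 4.8 to 4.93), Slc9a4 (4.95 against 5.23 to 5.37) and Spink8 (3.41 against 3.61 to 3.71). Replicate 5 was low in Oprm1 (3.21 against 3.36 to 3.43) and high in the mean of the common reference genes (6.36 against 6.17 to 6.23). Replicate 3 was low in the mean of the glutamate receptor subunits (7.05 against 7.10 to 7.13).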

How the results depend on the processing

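The number of calls depended on the scale and on the genes kept. Genes higher in the BNST numbered 461, and 731 with each library centred on its median and 1530 after quantile normalization. Genes higher in the vHPC numbered 3104, and 1514 after quantile normalization. They numbered 904 with ComBat-adjusted BNST values, for which 16362 genes remained, and 902 over the same genes without ComBat, an alternative chosen after seeing the data, so the smaller set of genes alone gave the lower number. By construction, a minimum difference of 1 called 1294 and 5826 genes, and a minimum of 3 called 141 in the BNST. Library set 2 alone gave 700 BNST calls. Leaving out 1 library gave 432 to 580 calls in the BNST and 3092 to 3200 in the vHPC. Among protein-coding genes without opposite-strand overlap, a restriction chosen after seeing the data, 237 and 690 were called of 9309. Of 91 named genes that were called, 84 kept the call after quantile normalization and 88 after centring. None of these 91 changed direction under an alternative in which it had a value. Changes of direction were not counted for named genes that were not called. No paired analysis was possible because the BNST and vHPC libraries came from different mice and no replicate number is shared by design. Depth limits the 1552 genes called higher in the vHPC that had 15 or fewer BNST reads, whose differences depend on the prior count.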
